A study of Arabidopsis thaliana with 12 samples.

Results

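WRKY proteins are a plant family of transcription factors, and 58 Arabidopsis thaliana loci of that family were looked up in a table of 12 expression arrays. A row was present for 42 of the 58 loci among the 16947 of the table, found by locus identifier with the probe set suffix removed, and the other 16 (WRKY1, WRKY4, WRKY11, WRKY15, WRKY18, WRKY20, WRKY26, WRKY29, WRKY39, WRKY41, WRKY43, WRKY44, WRKY50, WRKY51, WRKY57 and WRKY69) were not analysed here. The arrays carried RNA of whole 5-day-old seedlings of the Col-0 background in 4 groups of 3 replicates. All groups had a cold stratification of 2 days at 4 °C and were grown at 21 °C. Wild type plants were either untreated or exposed to a cobalt gamma source until they had received 100 Gy (27 to 34 Gy per min) and collected 1.5 h later, and plants of the line gmi1-1 (SALK_036931) were given the same 2 regimes. SALK lines carry a T-DNA insertion, and 1 mutant line was used. The comparison asks whether GMI1, whose expression depends on the damage kinase ATM, has a role in how transcription responds to radiation. Expression is given on the log2 scale as deposited, so a difference of 1 is a doubling, and levels below 4 were treated as near background.

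WRKY proteins share a DNA-binding domain built around the residues WRKYGQK and a zinc finger, and they bind the W-box in the promoters of defence and stress genes, other WRKY genes included. By the number of domains and the kind of zinc finger the family is divided into group I, with a pair of domains, group II with its branches a to e, and group III. Members are best known from responses to pathogens, wounding, oxidative stress, salicylate and senescence. Several are induced within minutes to hours of a stimulus, downstream of calcium and MAP kinase signals.

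A pair of libraries went against the groups they were labelled with or could not be told from each other. The library labelled gmi1-1 untreated replicate 1 differed from the library labelled gmi1-1 irradiated replicate 1 by more than 1 at 162 loci, close to the 142 between gmi1-1 untreated replicates 2 and 3, and no WRKY locus was among the 162. From gmi1-1 untreated replicates 2 and 3 it differed at 1553 and 1430 loci, of which 8 and 9 were WRKY loci. The mean of 11 DNA damage response genes, GMI1 among them, was 9.28 and 9.02 in this pair, against 4.17 to 4.47 on the other 5 untreated arrays and 10.02 to 11.19 on the other 5 irradiated arrays. Results on gmi1-1 are therefore given with and without these 2 libraries, called the replicate 1 pair of gmi1-1 from here on. The values of gmi1-1 irradiated replicate 3 were also less spread out, with an interquartile range of 4.70 where the other 11 arrays had 5.28 to 5.83. On that array the GAPDH control read lower at its 5' end than at its middle by a difference of -1.30, and elsewhere this difference lay between -0.47 and -0.17. GMI1 itself lay between 1.24 and 1.66 on all 6 gmi1-1 arrays, and its rise in wild type was 8.20 (SE 0.27, limma adjusted p = 1.49e-08). As 1 of the 11 genes, it lowers their mean on irradiated gmi1-1 arrays relative to irradiated wild type. All 6 root markers were in the table. SCR, of the root ground tissue, lay between 6.69 and 8, SHR, MYB66, SHV2 and EXPA7 between 2.99 and 6.02, and PLT1, of the root tip, between 1.19 and 2.14. The mean of the 6 was lowest on the 4 replicate 1 arrays, at 4.16 to 4.32, and 4.33 to 5.13 on the others. The 3 seed storage genes present lay at 2.87 or lower on every array, and the leaf markers were not analysed here.

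After irradiation of wild type 7 WRKY loci rose and 0 fell, in a fit of all 16947 loci without a filter on low values that took in all 42. The 7 were WRKY25, WRKY33, WRKY46, WRKY48, WRKY70, WRKY6 and WRKY23, with log2 changes from 6.05 down to 1.26. Among all loci, 2.01% rose in that fit. At an unadjusted p under 0.05 there were 15 WRKY loci in that fit, beside 2462 of the 16947 loci. The median change of the 42 loci was 0.50, beside -0.03 for all loci. With loci kept only where at least 3 of the 12 arrays reached 4, 19 WRKY loci and 9889 loci in all were tested, the same 7 rose and 0 fell, and the background was 3.21% rising and 1.33% falling. Of the 19, the loci WRKY23, WRKY25, WRKY40, WRKY46, WRKY48 and WRKY70 reached 4 on none of the 5 untreated arrays outside the replicate 1 pair of gmi1-1. Of the 23 not tested, 18 reached 4 on no array and 5 on 1 or 2 arrays. The 6 named were kept through arrays on which they were high, and nothing is read from the share of the 19 that was called. All adjusted p-values and standard errors that follow come from limma with this filter and are adjusted over the 9889 loci, unless another fit is named.

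The 3 irradiated wild type arrays lay above all 3 untreated ones for 16 of the 42 WRKY loci, beside 9.85% of all loci in the table. They lay below for 1 WRKY locus, WRKY65, beside 12.6% of all loci. For the other 25 the arrays overlapped. Without the replicate 1 pair of gmi1-1, which changes only the estimate of the spread for this comparison, 7 WRKY loci rose (background 4.14%) and 1 fell, again WRKY65 (background 3.21%). Single arrays weighed on the count of loci called. With all arrays under the filter 7 WRKY loci were called, beside 449 loci in all. Of wild type, omitting untreated replicate 2 left 3 (176 in all) and omitting untreated replicate 3 left 4 (167 in all). Omitting irradiated replicate 2 left 2 (111 in all) and omitting irradiated replicate 3 left 4 (250 in all). Omitting untreated or irradiated replicate 1 left 6 each (302 and 372 in all). Calls were thus lost over the whole table, and nothing particular to WRKY loci is read from these counts. WRKY25 and WRKY46 kept their call when any array was left out. The runs that omit a wild type array keep the replicate 1 pair of gmi1-1 in the shared estimate of the spread. With all wild type arrays and without that pair, adjusted p was 0.0121 for WRKY6, 4.09e-05 for WRKY33 and 0.00133 for WRKY48. It was 0.000861 for WRKY70 and 0.00883 for WRKY23. With the wild type groups alone, adjusted p of these loci lay between 0.000829 and 0.0154. Omitting a wild type array as well as the pair was not tried. With 3 arrays a group, labelled as biological replicates, the number of arrays limits the precision of each value.

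**Figure D1:**
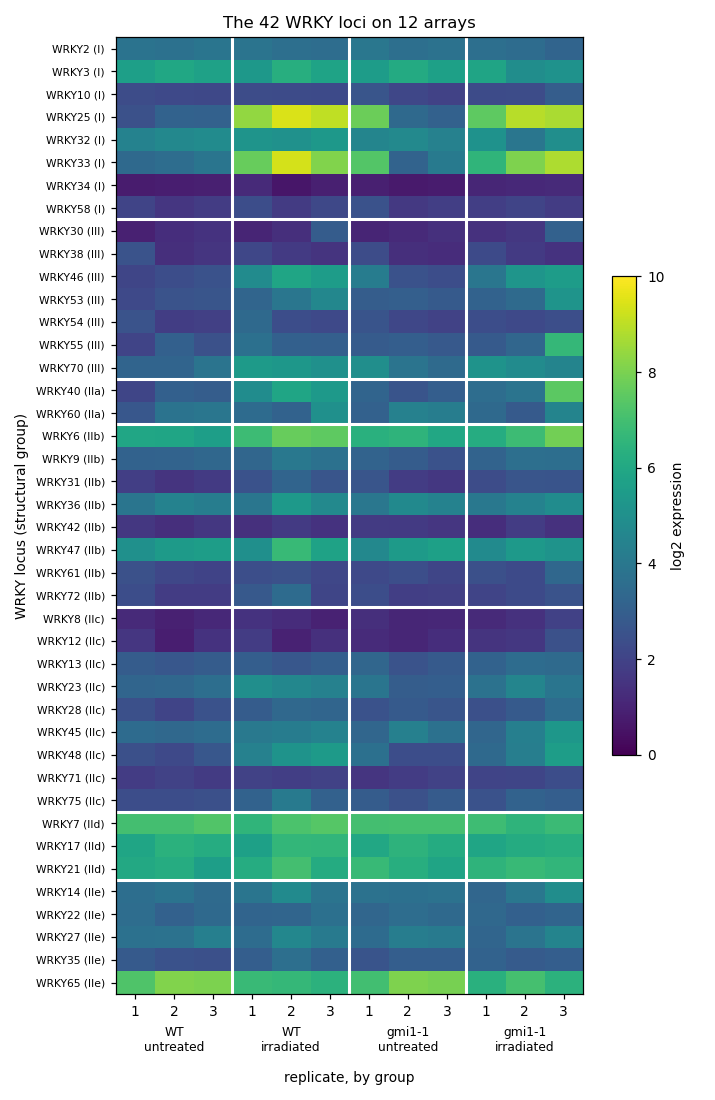
Log2 expression of the 42 WRKY loci (rows, with the structural group in brackets) on the 12 arrays (columns, replicates 1 to 3 in each group), as colour from 0 to 10. WRKY25 and WRKY33 turn from near background to above 7 on all irradiated wild type arrays and on the array labelled gmi1-1 untreated replicate 1, and many rows stay below 4 throughout.

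WRKY25 and WRKY33, a pair of related group I proteins, showed the largest rises of the family. WRKY33 is known for resistance to necrotrophic fungi and for switching on camalexin synthesis as a substrate of the kinases MPK3 and MPK6, and WRKY25 is known from heat and oxidative stress. The level of WRKY25 (AT2G30250) in wild type was 2.49, 3.13 and 3.12 on untreated arrays 1, 2 and 3, and 8.38, 9.45 and 9.05 after irradiation. The groups lay far apart, with a gap of over 5 between them, and means of 2.91 ± 0.37 (SD, n = 3) and 8.96 ± 0.54. Its rise of 6.05 (SE 0.96, adjusted p = 0.00877) ranked 22 among the 9889 loci tested. As the untreated level is near background, where the deposited values are compressed, the size and rank of this rise are approximate, as they are for WRKY33, WRKY46, WRKY70, WRKY48, WRKY23 and WRKY40, whose untreated wild type arrays were all below 4 too.

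In wild type WRKY33 (AT2G38470) was at 3.40, 3.59 and 3.88 untreated and at 7.68, 9.34 and 8.11 irradiated. All irradiated arrays were high, and the spread among them was wider than among the untreated ones, with means of 3.62 ± 0.24 and 8.38 ± 0.86 (SD, n = 3). The rise was 4.75 (SE 0.89, adjusted p = 0.012), and rank 42 of the 9889. Without wild type irradiated replicate 2, the highest of the 3, it was 4.27 and lost its call (adjusted p = 0.0675). In the replicate 1 pair of gmi1-1, WRKY25 was at 7.77 and 7.50 and WRKY33 at 7.32 and 6.56, the first value of each being that of the library labelled untreated. Both libraries were high, a little under the other irradiated arrays.

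Of the other 6 group I loci in the table none passed the test in wild type. WRKY32 (AT4G30935) was at 4.44, 4.65 and 4.82 untreated and at 5.16, 5.04 and 5.35 irradiated, so that the groups did not overlap, with a difference of 0.55 (SE 0.28, adjusted p = 0.331). WRKY3 (AT2G03340), known from defence against necrotrophic fungi, differed by 0.02 (SE 0.30). WRKY2, WRKY10, WRKY34 and WRKY58 stayed between 0.60 and 3.97 on all 12 arrays and were not tested under the filter. WRKY10 is known from seeds and WRKY34 from pollen, tissues that are not part of a young seedling.

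In group III, WRKY46 and WRKY70 rose in wild type. Both are known to act, with WRKY54, in brassinosteroid-regulated growth and drought responses, and WRKY70 is known as a node between salicylate and jasmonate signals. WRKY46 (AT2G46400) was at 2.08, 2.38 and 2.5 untreated and at 4.82, 5.86 and 5.54 irradiated. The groups did not overlap, and only irradiated arrays were above background, at a mean of 5.41 ± 0.53 (SD, n = 3) against 2.32 ± 0.22. Its rise was 3.09 (SE 0.51, adjusted p = 0.00877). For WRKY70 (AT3G56400) the values were 3.24, 3.24 and 3.83 untreated and 5.46, 5.31 and 5.02 irradiated. The 3 irradiated arrays lay close together and above all untreated ones, with a rise of 1.83 (SE 0.35, adjusted p = 0.013). Omitting wild type untreated replicate 2 (adjusted p = 0.0648) or irradiated replicate 2 (adjusted p = 0.0607) ended that call.

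The other 5 group III loci reached 4 on 2 arrays at most. WRKY53 (AT4G23810), a regulator of leaf senescence, was at 2.20, 2.54 and 2.65 untreated and at 3.25, 3.91 and 4.64 irradiated. Its groups did not overlap, and in the fit without a filter the difference was 1.47 (SE 0.46, adjusted p = 0.131). WRKY54 (AT2G40750) and WRKY55 (AT2G40740) follow each other as the next protein-coding genes in the RefSeq annotation of assembly TAIR10.1, and no other pair of the 58 loci does. In wild type WRKY54 was at 2.57, 1.82 and 1.90 untreated and 3.40, 2.38 and 2.21 irradiated, and WRKY55 at 2.06, 3.08 and 2.49 and then 3.69, 3.07 and 3.03. In both the untreated and irradiated arrays overlapped, and replicate 1 had the highest irradiated value. WRKY30, an early gene of oxidative stress, and WRKY38 stayed at 3.12 or lower throughout.

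Of group IIa, WRKY40 and WRKY60 were in the table. With WRKY18, they are known to form complexes and to hold back defence and abscisic acid responses. WRKY40 (AT1G80840) was at 2.09, 3.05 and 2.96 in untreated wild type and at 4.88, 5.86 and 5.37 after irradiation. The groups lay apart, with means of 2.70 ± 0.53 and 5.37 ± 0.49 (SD, n = 3), while the difference of 2.67 (SE 0.80) did not pass (adjusted p = 0.0904). The standard error is drawn from all 4 groups. With the 2 wild type groups alone the same difference passed (SE 0.35, adjusted p = 0.00493), as it did without gmi1-1 irradiated replicate 3 (SE 0.32, adjusted p = 0.0125). In gmi1-1 WRKY40 was at 3.22, 2.59 and 2.98 untreated and at 3.56, 3.86 and 7.48 irradiated. Only irradiated replicate 3 stood out there. Over both genotypes with all arrays WRKY40 rose by 2.35 (SE 0.56, adjusted p = 0.0239), a call lost without wild type irradiated replicate 2 (adjusted p = 0.0616), without gmi1-1 untreated replicate 2 (0.0625) or without gmi1-1 untreated replicate 3 (0.0578). Without the replicate 1 pair and gmi1-1 irradiated replicate 3 together it was 1.87 (adjusted p = 0.00544). WRKY60 (AT2G25000) ran from 2.71 to 5.01 with overlapping groups, and a difference of 0.41 in wild type (SE 0.57, adjusted p = 0.734).

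WRKY6 was the only one of 8 group IIb loci to pass in wild type. It is known from senescence and from the supply of phosphate and boron. WRKY6 (AT1G62300) was well above background on every array, at 5.92, 5.87 and 5.59 untreated and at 6.86, 7.67 and 7.53 irradiated. The groups were separate, with a rise of 1.56 (SE 0.37, adjusted p = 0.035). Without the replicate 1 pair of gmi1-1 the rise passed too (SE 0.31, adjusted p = 0.0121). With that pair in the fit the call was fragile. Omitting wild type untreated replicate 1, 2 or 3 ended it (adjusted p = 0.0719, 0.103 and 0.143), as did omitting irradiated replicate 2 or 3 (0.153 and 0.102), or gmi1-1 untreated replicate 2 or gmi1-1 irradiated replicate 2 (0.0501 and 0.0511). Quantile normalization and median centring ended it too (0.0669 and 0.0533).

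Its close relative WRKY31 (AT4G22070) stayed below 4 on all arrays, at 1.84, 1.52 and 1.68 in untreated and 2.52, 3.23 and 2.63 in irradiated wild type. The groups did not overlap, and the difference without a filter was 1.11 (SE 0.27, adjusted p = 0.052). WRKY36 differed by 0.48 (SE 0.36, adjusted p = 0.509) and WRKY47 by 0.49 (SE 0.40, adjusted p = 0.554), and both overlapped between groups. WRKY9, WRKY42, WRKY61 and WRKY72 lay between 1.29 and 4.02 over the 12 arrays.

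Group IIc had 9 loci in the table, of which WRKY48 and WRKY23 rose in wild type. WRKY48 is known to restrain basal resistance to bacteria, and WRKY23 acts in auxin responses and root growth. WRKY48 (AT5G49520) was at 2.44, 2.22 and 2.70 untreated and at 4.38, 5.15 and 5.46 irradiated. Every irradiated array was above background and every untreated one below it, with a rise of 2.54 (SE 0.52, adjusted p = 0.0171). Omitting wild type untreated replicate 2 or 3 (adjusted p = 0.0768 and 0.0528) or irradiated replicate 2 or 3 (0.0813 and 0.0687) ended the call. WRKY23 (AT2G47260) was at 3.26, 3.33 and 3.61 untreated and 4.95, 4.62 and 4.41 irradiated. Its groups were separate by less than those of WRKY48, with a rise of 1.26 (SE 0.30, adjusted p = 0.0353). Leaving out any 1 of the 6 wild type arrays ended that call, with adjusted p between 0.0628 and 0.13.

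WRKY45 (AT3G01970), a regulator of phosphate uptake, was at 3.50, 3.39 and 3.53 in untreated and 4.04, 4.20 and 4.43 in irradiated wild type. The groups did not overlap, with a difference of 0.75 (SE 0.42, adjusted p = 0.369). WRKY75 (AT5G13080), of phosphate starvation and root hairs, was at 2.37, 2.38 and 2.44 and then 3.16, 4.14 and 3.10, and WRKY28 (AT4G18170), a regulator of salicylate synthesis, at 2.45, 2.07 and 2.5 and then 2.92, 3.39 and 3.26. Both were separate between the groups and low. Without a filter their differences were 1.07 (SE 0.28, adjusted p = 0.0613) and 0.85 (SE 0.27, adjusted p = 0.128). WRKY8, WRKY12, WRKY13 and WRKY71 stayed between 0.85 and 3.53.

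The 3 group IId loci in the table, WRKY7, WRKY17 and WRKY21, were expressed on every array, and none passed in wild type. Proteins of this group are known to bind calmodulin, and WRKY17 to restrain basal defence. WRKY7 (AT4G24240) ran from 6.49 to 7.38, WRKY17 (AT2G24570) from 5.67 to 6.61 and WRKY21 (AT2G30590) from 5.61 to 7. Their wild type differences were -0.08 (SE 0.23), 0.12 (SE 0.27) and 0.51 (SE 0.29), with adjusted p = 0.89, 0.842 and 0.389, and their untreated and irradiated arrays overlapped.

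In group IIe, WRKY65 was lower after irradiation. WRKY65 (AT1G29280) was at 7.26, 8.09 and 8.04 in untreated and 6.79, 6.67 and 6.42 in irradiated wild type. It was the only WRKY locus whose irradiated arrays all lay below the untreated ones, and the difference of -1.17 (SE 0.33) did not pass with all arrays (adjusted p = 0.0716). With the replicate number as a block it passed (SE 0.27, adjusted p = 0.0352), as it did without the replicate 1 pair of gmi1-1 (adjusted p = 0.027). WRKY65 did not pass in wild type without a filter (adjusted p = 0.0778) or with the wild type groups alone. In gmi1-1 WRKY65 was at 6.99, 8.08 and 7.95 untreated and at 6.36, 7.04 and 6.41 irradiated. The lowest of those untreated values, 6.99, is that of the doubted library. In wild type untreated replicate 1 was also the lowest of its group. Over both genotypes WRKY65 fell by 1.12 (SE 0.23, adjusted p = 0.0123), and this call held when any 1 array was left out. WRKY27 (AT5G52830), of defence signalling, ran from 3.27 to 4.64 with overlapping groups (difference 0.17, SE 0.36). WRKY14 and WRKY35 lay above their untreated arrays in irradiated wild type, at 3.88, 4.78 and 3.85 against 3.62, 3.79 and 3.44 and at 2.98, 3.65 and 3.07 against 2.83, 2.51 and 2.45. WRKY22, known from flagellin signalling, ran from 3.06 to 3.70 and overlapped.

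**Figure D2:**
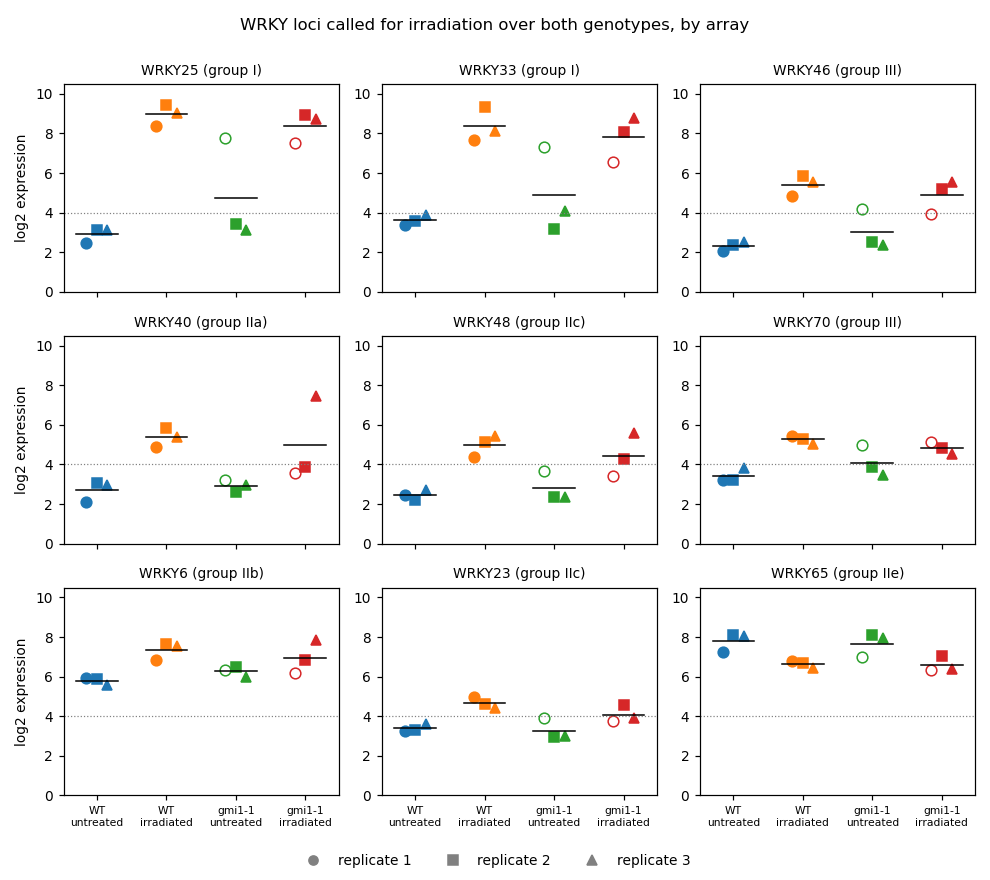
Log2 expression by array for the 9 WRKY loci called for irradiation over both genotypes, with a mark for each replicate number, a line at the mean of the 3 arrays of a group and a dotted line at 4. Open symbols are the replicate 1 pair of gmi1-1: for WRKY25, WRKY33, WRKY46 and WRKY48 the open symbol among the untreated arrays lies well above the other 2.

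Averaged over both genotypes with all 12 arrays, 8 WRKY loci rose and 1 fell, beside 4.09% and 6.29% of all tested loci. Without a filter 10 of the 42 rose and 1 fell, beside 2.98% and 3.76%. Beside the 7 of wild type, WRKY40 rose in both fits, and WRKY31 by 0.81 (adjusted p = 0.0293) and WRKY53 by 1.23 (adjusted p = 0.0431) rose without a filter. Without the replicate 1 pair and with no filter 14 of the 42 rose and 1 fell, beside 752 and 1476 of the 16947 loci. With the filter 9 rose and 1 fell, beside 5.48% and 13.6% of tested loci, and WRKY45 was the locus added (0.76, SE 0.22, adjusted p = 0.0379). As before, nothing is read from the share of the 19 that was called. WRKY45 was at 3.31, 4.36 and 3.72 in untreated gmi1-1 and at 3.29, 4.31 and 5.29 in irradiated gmi1-1. These overlap, with irradiated replicate 3 the highest. WRKY31, at 2.64, 1.78 and 1.62 and then 2.31, 2.64 and 2.59, and WRKY53, at 2.93, 3.03 and 2.85 and then 3.14, 3.46 and 5.19, did not overlap in gmi1-1 replicates 2 and 3. This average shares its wild type arrays with the wild type comparison. Over both genotypes the call of WRKY6 ended on omitting wild type untreated replicate 3 (adjusted p = 0.0606), wild type irradiated replicate 2 (0.0556) or gmi1-1 untreated replicate 3 (0.0664).

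In gmi1-1 as labelled no WRKY locus passed the test, while replicates 2 and 3 alone showed rises of the same loci that led in wild type. With all 12 arrays 0 WRKY loci and 0 loci in all (0%) were called by limma in gmi1-1. An unadjusted p under 0.05 was found for 7 WRKY loci, beside 1306 of the 9889 loci tested. WRKY25 differed by 3.62 (SE 0.96, adjusted p = 0.234) and WRKY46 by 1.87 (SE 0.51, adjusted p = 0.234). The library labelled gmi1-1 untreated replicate 1 was above all 5 other untreated arrays for 6 of the 7 loci that rose in wild type, all but WRKY6. In the replicate 1 pair, labelled untreated first, WRKY46 was at 4.19 and 3.94, WRKY70 at 4.96 and 5.14 and WRKY48 at 3.69 and 3.42. WRKY23 was at 3.89 and 3.77 and WRKY6 at 6.35 and 6.18. Both libraries read alike for these 5 loci. The same standing above the other untreated arrays held for 87.7% of all loci that rose in wild type.

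Without the replicate 1 pair, which leaves 2 arrays in each gmi1-1 group, 5 WRKY loci rose and 1 fell in gmi1-1, beside 2.46% and 5.13% of the loci tested. In the fit of all 42 without a filter it was also 5 and 1, beside 1.85% and 3.03%. WRKY25 was at 3.42 and 3.11 in untreated replicates 2 and 3 and at 8.93 and 8.74 in the irradiated ones, and rose by 5.57 (SE 0.36, adjusted p = 6.86e-06). WRKY33 was at 3.19 and 4.10 and then at 8.07 and 8.78, and rose by 4.78 (SE 0.51, adjusted p = 0.00029). Both were as high in the irradiated mutant as in irradiated wild type to within the spread of the arrays.

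WRKY46 was at 2.5 and 2.37 in untreated gmi1-1 replicates 2 and 3 and at 5.20 and 5.54 irradiated, a rise of 2.93 (SE 0.34, adjusted p = 0.000506). WRKY48 was at 2.37 and 2.36 and then 4.29 and 5.58, a rise of 2.57 (SE 0.44, adjusted p = 0.00658). For WRKY23 the values were 2.93 and 2.98 and then 4.57 and 3.89, a rise of 1.27 (SE 0.29, adjusted p = 0.0272). In all 3 the gap between untreated and irradiated arrays was wider than the difference between the replicates of either group. WRKY65 fell by 1.29 (SE 0.33, adjusted p = 0.0436).

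WRKY70, at 3.86 and 3.46 and then 4.82 and 4.52, differed by 1.01 (SE 0.30, adjusted p = 0.0663), and WRKY6, at 6.49 and 5.99 and then 6.84 and 7.86, by 1.11 (SE 0.38, adjusted p = 0.112). Neither passed. The counts moved with single arrays: with untreated replicate 2 or 3 left out as well, 3 WRKY loci rose and 0 fell, with 133 and 146 loci rising and 86 and 67 falling in all. Leaving out irradiated replicate 2 gave 7 and 1, with 256 and 1741 in all, and added WRKY6 (1.62, adjusted p = 0.0243), WRKY40 (4.70, adjusted p = 0.00157) and WRKY45 (1.25, adjusted p = 0.0278). Those 3 then rest on irradiated replicate 3 alone. Leaving out that array gave 5 and 0, with 213 and 130 in all. WRKY25, WRKY33 and WRKY46 kept their gmi1-1 call when any 1 of the 4 remaining gmi1-1 arrays was left out as well, which leaves a group of 1 whose spread is taken from the other groups. WRKY48 lost it without untreated replicate 2 or 3 (adjusted p = 0.055 and 0.0572). WRKY23 lost it without untreated replicate 2 or 3 or irradiated replicate 2 (0.176, 0.158 and 0.0512). WRKY65 lost it without untreated replicate 2 or 3 or irradiated replicate 3 (0.233, 0.191 and 0.229).

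Irradiated gmi1-1 replicates 2 and 3 lay above their untreated replicates for 25 of 42 WRKY loci and below for 6, beside 23.9% and 30.8% of all loci. For 12 loci the irradiated arrays were above the untreated ones both in wild type and in these gmi1-1 replicates, 2 against 2 arrays. They were WRKY6, WRKY14, WRKY23, WRKY25, WRKY31, WRKY33, WRKY40, WRKY46, WRKY48, WRKY53, WRKY70 and WRKY75. Only WRKY65 was below in both. The share of all loci above or below in both genotypes was not computed, and nothing is read from these counts. The median change of the 42 in these gmi1-1 arrays was 0.54, beside -0.08 over all loci.

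The array of gmi1-1 irradiated replicate 3, which stood apart in its spread and GAPDH ratio, held the highest of the 12 values for 15 of the 42 WRKY loci (35.7%), beside 17.8% of all loci. Wild type irradiated replicate 2 held it for 14 (33.3%), beside 18.7%. WRKY55 was at 6.67 in gmi1-1 irradiated replicate 3 and between 2.06 and 3.69 on the 11 other arrays. WRKY40 at 7.48, WRKY53 at 5.19 and WRKY30 at 3.12 also had their highest value there. Replicate 2 of the same group was at 3.32, 3.86, 3.46 and 1.63 for these 4 loci, so their level in irradiated gmi1-1 rests on 1 array. In irradiated wild type, replicate 3 was also the highest for WRKY53 (3.25, 3.91 and 4.64) and WRKY30 (1.03, 1.34 and 2.91), but not for WRKY40 and WRKY55. The part that the quality of gmi1-1 irradiated replicate 3 has in its values was not tested.

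**Figure D3:**
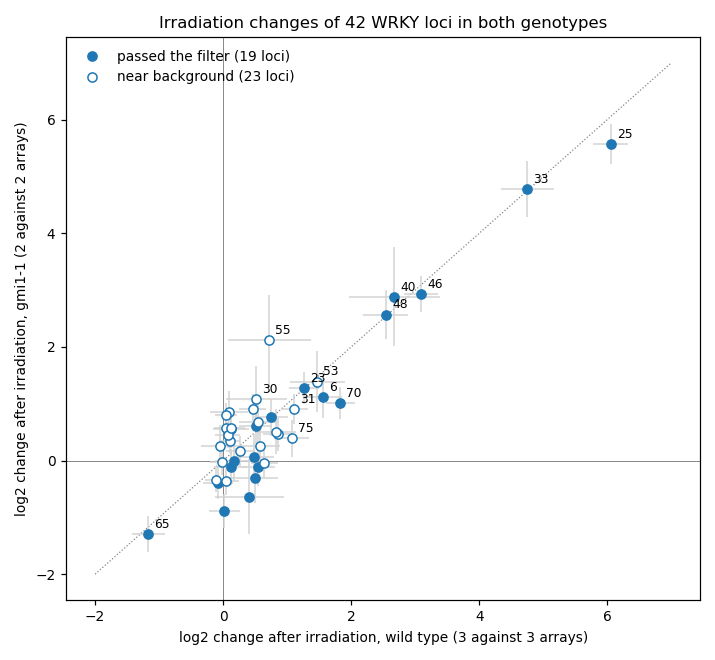
Log2 change after irradiation in wild type (horizontal, 3 against 3 arrays) and in gmi1-1 without its replicate 1 pair (vertical, 2 against 2 arrays) for the 42 WRKY loci, with standard errors from limma without a filter and a dotted line of equal change. WRKY25 (6.05 and 5.57) and WRKY33 (4.75 and 4.78) lie near the line, and WRKY55 lies above it through a single gmi1-1 array.

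The question of the series, whether the response differs between the genotypes, was put to the 19 tested WRKY loci as the difference of the irradiation effects, gmi1-1 minus wild type. In limma 0 of them passed with all 12 arrays (0.0101% of all tested loci, 1 locus) and 0 without the replicate 1 pair. In each fit 1 had an unadjusted p under 0.05, WRKY70 in the first and WRKY3 in the second. Among the 9889 loci tested, 184 and 263 did. With all 12 arrays, the difference was -2.42 for WRKY25 (95% interval -5.38 to 0.53), -1.82 for WRKY33 (-4.58 to 0.94), -1.21 for WRKY46 (-2.79 to 0.36) and -1.09 for WRKY70 (-2.17 to -0.01, adjusted p = 1). These were more negative and wider than without the replicate 1 pair. On the other 10 arrays it was -0.48 for WRKY25 (95% interval -1.52 to 0.56), 0.03 for WRKY33 (-1.44 to 1.49) and -0.15 for WRKY46 (-1.12 to 0.81). For WRKY48 it was 0.03 (-1.24 to 1.29), for WRKY23 0.01 (-0.83 to 0.86) and for WRKY65 -0.12 (-1.08 to 0.84). These intervals span a doubling or more in at least 1 direction for WRKY25, WRKY33, WRKY46, WRKY48 and WRKY65, so they do not show equal responses. WRKY70 had -0.82 (-1.66 to 0.03), and WRKY40, whose gmi1-1 replicates disagree, 0.21 (-2.32 to 2.75).

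Between the untreated genotypes 0 of the 19 passed in limma (0.0101% of tested loci), with and without the replicate 1 pair. An unadjusted p under 0.05 was found for 0 in either fit, beside 42 of the 9889 loci with the pair and 195 without it. Between the irradiated genotypes 0 passed as well (0.0101%). On all arrays 0 had an unadjusted p under 0.05, beside 764 of the 9889 loci. Without the pair 2 of the 19 did, beside 1362 of the 9889 loci, and nothing is read from this count. The 2 were WRKY3 at -0.79 (95% interval -1.43 to -0.15, adjusted p = 0.298) and WRKY32 at -0.75 (-1.42 to -0.08, adjusted p = 0.321). WRKY3 was at 5.34, 6.25 and 5.79 in irradiated wild type and 4.91 and 5.10 in irradiated gmi1-1 replicates 2 and 3. Its genotypes lay apart there, and the doubted library labelled irradiated replicate 1 was at 5.84, among the wild type values.

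Genes that act with WRKY proteins moved in part. Of 7 tested genes of the MAP kinase cascade, 1 rose in wild type: MKK9, a kinase that activates MPK3 and MPK6, was at 6.33, 6.05 and 6.76 untreated and at 8.85, 8.47 and 8.33 irradiated, a rise of 2.17 (SE 0.47, adjusted p = 0.023). The groups lay apart, and MKK9 also rose in gmi1-1 replicates 2 and 3, by 2.43 (SE 0.41, adjusted p = 0.00629). MPK3 differed by 0.88 in wild type (SE 0.27, adjusted p = 0.0971) and MEKK1, an upstream kinase, by 0.81 (adjusted p = 0.152). MKK9 was at 8.17 and 8.77 in the replicate 1 pair. The median of the list was 0.55, beside -0.11 for all tested loci, of which 3.21% rose in wild type and 2.46% in gmi1-1 replicates 2 and 3. Of 3 tested VQ proteins, which bind WRKY domains, 0 passed in wild type by limma. MKS1, a partner of WRKY25 and WRKY33, differed by 1.07 (SE 0.31, adjusted p = 0.0833), and SIB2 by -1.05 (adjusted p = 0.155). The VQ gene AT2G22880 rose in gmi1-1 replicates 2 and 3 by 2.13 (SE 0.35, adjusted p = 0.00534), and it differed by 1.35 in wild type (adjusted p = 0.174).

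Of 4 tested genes of camalexin and ethylene synthesis, 1 rose in wild type and 2 in gmi1-1 replicates 2 and 3. PAD3, the last enzyme of camalexin synthesis and a known target of WRKY33, rose by 1.45 in irradiated wild type (SE 0.37, adjusted p = 0.0494). In gmi1-1 replicates 2 and 3 it rose by 1.18 (SE 0.29, adjusted p = 0.0361). PAD3 was near background, at 3.33, 2.79 and 3.18, in untreated wild type, and below 4 in those gmi1-1 replicates. The sizes of these rises are approximate. ASA1 (0.06, adjusted p = 0.909) and CYP83B1 (-0.4, adjusted p = 0.417) did not pass in wild type. CYP71A12 and CYP71A13 were too low for a test. ACS6, an ethylene synthesis enzyme, rose by 1.52 in those gmi1-1 replicates (SE 0.24, adjusted p = 0.00402), and differed by 0.84 in wild type (adjusted p = 0.102). Of 7 tested genes of the flagellin and chitin response, CYP81F2, of indole glucosinolate synthesis, rose by 4.49 (SE 0.90, adjusted p = 0.0157) in wild type and by 4.28 in gmi1-1 replicates 2 and 3 (SE 0.61, adjusted p = 0.00221). The kinase gene PBL2 (1.83, adjusted p = 0.0522) and BAK1, a co-receptor of FLS2 (0.81, adjusted p = 0.139), did not pass in wild type. Nor did CERK1, FLS2, BIK1 and RBOHD (adjusted p from 0.312 to 0.556). FRK1 and NHL10, the others of that list, were at 2.49 or lower on every array and too low for a test. Of 5 tested salicylate and defence genes 0 passed in either genotype by limma, with NPR3, a salicylate receptor, at 1.28 in wild type (SE 0.43, adjusted p = 0.132). The salicylate marker PR1 was among the 4 genes of that list too low for a test. List medians in wild type were 1.07, 0.45, 0.81 and 0.35 for the VQ, camalexin, flagellin and salicylate lists.

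Of 7 tested markers of touch and handling, 4 rose in wild type (median 1.87) and 5 in gmi1-1 replicates 2 and 3 (median 1.60), beside 3.21% and 2.46% of all tested loci and medians of -0.11 and -0.34 over all tested loci. The mean of the 9 touch and handling genes in the table was 4.73 to 5.33 on the 5 untreated arrays outside the replicate 1 pair, 6.33 to 6.46 in irradiated wild type, 6.86 and 7.02 in irradiated gmi1-1 replicates 2 and 3, and 6.02 and 5.87 in the replicate 1 pair. In wild type STZ, a zinc finger repressor, rose by 5.56 (adjusted p = 0.0102), ERF6, an ethylene response factor, by 3.06 (adjusted p = 0.0192) and TCH4, a cell wall enzyme, by 2.06 (adjusted p = 0.00877). TCH2, a calmodulin-like gene (-0.22, adjusted p = 0.651), CIR1 (-0.31, adjusted p = 0.752) and ZAT12 (1.87, adjusted p = 0.177) did not pass in wild type, and DREB1A and DREB1B were too low for a test. WRKY33 and WRKY40 are themselves known to respond to wounding. Whether untreated plates made the trip to the source is not given in the labels, and the part of handling in these WRKY changes was not tested. All 11 DNA damage response genes tested rose in wild type, with a median of 7.38. In whole seedlings, a change in RNA per cell cannot be told apart from a change in the number of cells that express a gene.

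**Figure D4:**
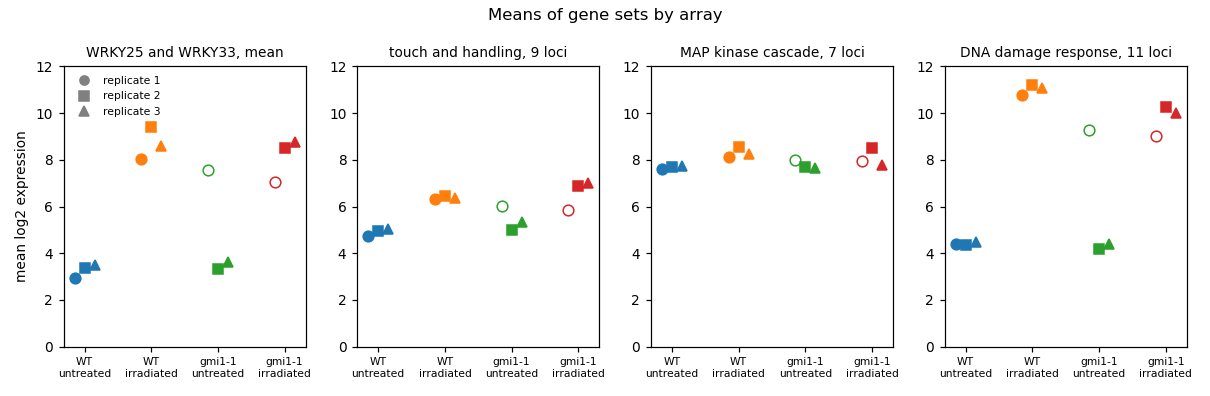
Mean log2 expression by array of WRKY25 with WRKY33, of 9 touch and handling genes, of 7 MAP kinase cascade genes and of 11 DNA damage response genes, with open symbols for the replicate 1 pair of gmi1-1. All sets but that of the MAP kinases separate the 5 other untreated from the 5 other irradiated arrays by 1 or more, and the open symbols of both groups lie close together in each of the 4 sets. The damage response set includes GMI1, which is low on all gmi1-1 arrays and lowers their irradiated means.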

How the data were processed

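The deposited values are log2 expression levels, 1 for each probe set on each array, summarised by the authors with GCRMA (per the submitters' processing notes), which subtracts background by probe sequence. The GCRMA version, array design and probe definitions were not stated in any source consulted. The log2 scale was read from the range of the values. No 2 of the 12 arrays held identical values.

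Group means were estimated with limma 3.58.1 in R 4.3.3 over all loci with at least 3 of 12 arrays at a log2 value of 4 or more (9889). P-values are moderated, two-sided and Benjamini-Hochberg adjusted over all loci tested, and a locus was called under 0.05. The code was tested on simulated data. Members and gene lists were chosen with earlier results of these data known. Values on every array are given for members called in any comparison, with all arrays or without the replicate 1 pair of gmi1-1 under this filter. Others are given by structural group, and from each gene list up to 3 genes with the smallest wild type p, with further members of some lists. Alternatives were a replicate block, no filter, a filter at 6, quantile normalization, median centring, array weights, fewer groups and arrays left out. Same-numbered arrays of the 2 genotypes deviated together from their group means (r from 0.537 to 0.666 untreated and 0.166 to 0.406 irradiated), a pairing read from the data and not stated in the labels. Names were taken from RefSeq (TAIR10.1). Promoter and protein sequences were not analysed here.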

Additional observations from a re-analysis of the deposited data

How the results depend on the processing

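Numbers of WRKY loci called are given here in either direction, with the number called among all loci in brackets. In wild type (7, with 449 in all) the count was 3 with a filter at 6 (297 of 7192 in all). Fewer loci reach that filter. The count was 12 without a filter and without the replicate 1 pair and irradiated replicate 3 of gmi1-1 (1029 of 16947 in all). With 1 array left out it was 2 to 8 (111 to 591 in all), lowest without wild type irradiated replicate 2. In gmi1-1 (0, with 0 in all) it was 6 with array weights (417 in all). Without the replicate 1 pair it was 6 with the filter (750 of 9889 in all) and 6 with no filter (827 of 16947 in all). With 1 array left out the gmi1-1 count ran from 0 to 5. It was 5 without the library labelled untreated replicate 1 (327 in all) and 2 without the one labelled irradiated replicate 1 (305 in all). Over both genotypes (9, with 1026 in all) it was 4 with a filter at 6 (712 of 7192 in all). It was 15 with no filter and without the replicate 1 pair (2228 of 16947 in all), and 7 to 10 with 1 array left out (474 to 1528 in all). The cause of these moves was not tested further. The 3 comparisons of genotypes gave 0 under every alternative run, single arrays left out included. With the replicate number as a block the counts were 8 in wild type (WRKY65 added, 585 in all), 0 in gmi1-1 (0 in all) and 9 over both (1485 in all). It changed no call between genotypes, where the numbers pair the arrays. Between untreated and irradiated arrays r was 0.485, 0.0698 and 0.533 in wild type replicates 1, 2 and 3, and 0.139, 0.0514 and 0.0604 in gmi1-1. As not all were over 0.1, the numbers were not taken to pair those, though wild type replicates 1 and 3 deviated together. Of the changes of single loci, 28 values lost their call under an alternative, 322 did not and 0 reversed. GCRMA compresses values near background, which limits the low members. In the fit without gmi1-1 irradiated replicate 3 and the replicate 1 pair, the lone irradiated gmi1-1 array is assumed to vary like the others.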
